A study of Homo sapiens with 4 samples.

Results

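H3K27ac peaks and SMARCB1 peaks were described at 8 genes of the TGF-beta pathway, which are the ligand genes TGFB1, TGFB2 and INHBA, the receptor genes TGFBR1 and TGFBR2, the signal transducer gene SMAD3 and the feedback genes SMAD7 and SKIL. They were taken by name, as 8 of 19821 protein-coding genes. For each gene, the bases covered by peaks were summed over the gene record and 20 kb on each side, separately for each peak list, and this sum is called the covered length. The study profiled SK-Hep1, a human line labelled as hepatic adenocarcinoma, by ChIP-seq. The H3K27ac groups were cells with an shRNA against SMARCB1 (shSMARCB1) and cells with a control shRNA (shCon), both infected, stably expressing and kept under puromycin selection. The sources used here do not give the shRNA sequences, the number of clones or the SMARCB1 level that remained. SMARCB1 itself, which belongs to the core of the SWI/SNF remodellers of chromatin, was profiled in another library whose labels do not name the shRNA of the cells. Each group had 1 library, so values carry no replicate check and the conditions could not be compared by a test. In bulk chromatin, fewer cells with the mark and less mark per cell cannot be told apart.

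H3K27ac, acetylation of lysine on histone H3, marks active promoters and enhancers. TGF-beta ligands bring type II and type I receptor kinases together, the type I receptor phosphorylates SMAD2 and SMAD3, and these enter the nucleus with SMAD4 and bind regulatory DNA. Among the genes that this signal switches on are its own brakes, SMAD7 and SKIL, so the pathway limits itself. In liver the pathway is known for its part in fibrosis and in growth arrest of hepatocytes.

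The shSMARCB1 library held 10203310 tags and the shCon library 13235203, a ratio of 0.771, with 55.1% of tags in peaks for shSMARCB1 and 53.8% for shCon. The lists held 34073 peaks over 70.9 Mb in shSMARCB1 and 35307 peaks over 79.5 Mb in shCon, a covered ratio of 0.892. The tag numbers and the covered lengths differed in the same direction, and the part of depth in the values below was not tested. The SMARCB1 list held 4453 peaks, and the sources used here do not state its depth. Of 6 hepatocyte markers, SERPINA1 alone had H3K27ac at a gene end (1 kb to either side) in either library, and ALB, APOA1, TTR, HNF4A and APOB had none. All 6 mesenchymal markers had it in both libraries, and none of 5 endothelial markers had it in either. Of 5 epithelial markers, 3 had it in shSMARCB1 (KRT8, KRT18 and KRT19) and 4 in shCon, where EPCAM had it too, and of 4 leukocyte markers CD14 had it in both.

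H3K27ac over the 8 genes covered 123720 bp in shSMARCB1 and 140815 bp in shCon, a ratio of 0.879. SMAD3 made up 88.6% of that difference. Over the other 7 genes the covered length was 80908 bp in shSMARCB1 and 82863 bp in shCon, a ratio of 0.976. The covered length was lower in shSMARCB1 at 7 genes and higher at TGFBR2, with log2 ratios (shSMARCB1 over shCon) from -0.44 to 0.11 and a median of -0.06. Over the 15587 protein-coding genes with H3K27ac in both libraries the median was -0.17, with an interquartile range from -0.34 to -0.02. Of the 16162 genes with H3K27ac in either library, 77% were lower in shSMARCB1.

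**Figure D1:**
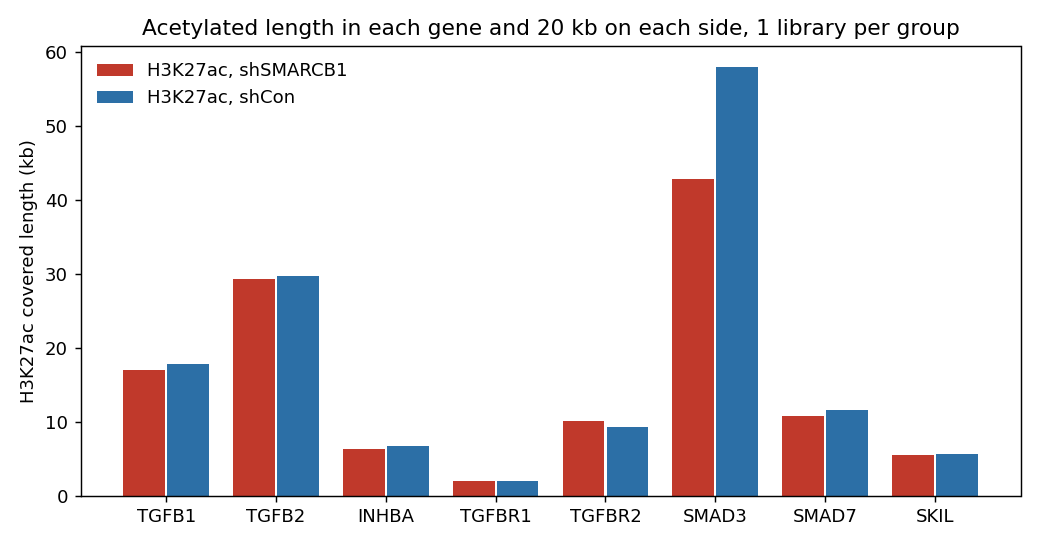
Bars give the H3K27ac covered length (kb) of each gene and 20 kb on each side in shSMARCB1 (red) and shCon (blue), with 1 library per group and hence no error bars. SMAD3 has the widest gap, with 42812 bp in shSMARCB1 and 57952 bp in shCon, and the other 7 pairs lie close together.

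None of the 8 genes was past 1.5-fold in either direction. Among the 16162 genes with H3K27ac in either library, 10.8% were at least 1.5-fold lower in shSMARCB1 and 3.53% were at least 1.5-fold higher, counting genes covered in a single library. At those shares a count of 0 among 8 genes does not set them apart from the other genes. SMAD3 came nearest to the threshold, and 16.4% of genes had a lower log2 ratio than SMAD3. TGFBR2 stood at the other end, with 87.6% of genes below it.

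**Figure D2:**
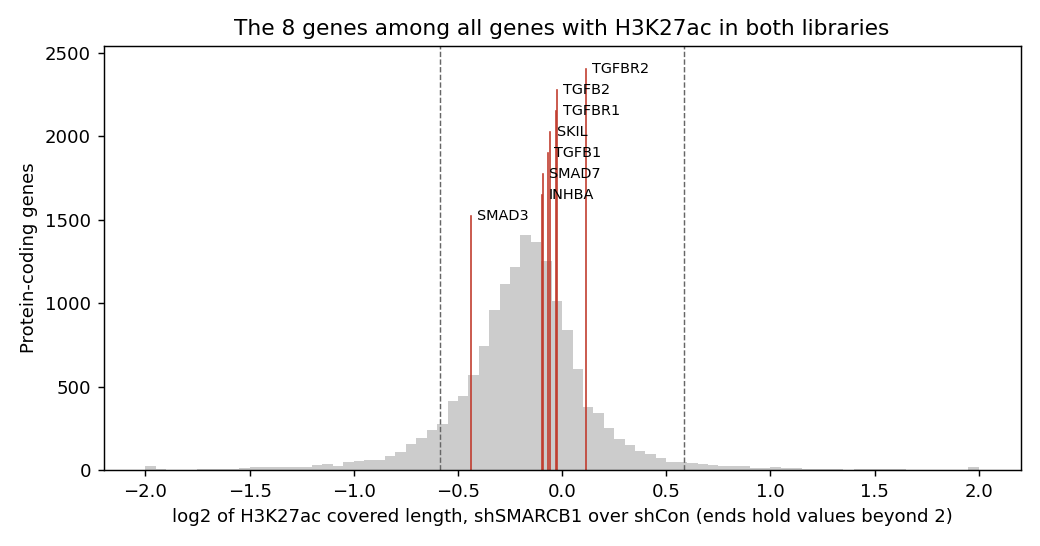
The histogram shows the log2 ratio of H3K27ac covered length, shSMARCB1 over shCon, for genes with H3K27ac in both libraries, and vertical lines mark the 8 genes. SMAD3 at -0.44 lies left of the all-gene median of -0.17, and the other 7 lie right of it.

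TGFB1, the ligand gene for which the family is named, lies on the minus strand of chromosome 19 at 41330323-41353922 (hg38). Its window was covered over 17026 bp in shSMARCB1 and 17850 bp in shCon, which is 26.8% of the window in shSMARCB1 and 28.1% in shCon. The 5 acetylated regions there were all found in both libraries, 3 of them narrower and 2 wider in shSMARCB1. The peak over the TGFB1 start was 3119 bp wide in shSMARCB1 and 3577 bp in shCon. The longest region, 6325 bp in shSMARCB1 and 6866 bp in shCon, was centred at -12.3 kb from the start, in a window that also holds CCDC97, B9D2 and TMEM91. Most of the covered length at TGFB1 is thus shared with neighbours. Counting only peaks whose nearest protein-coding gene is TGFB1 left 4359 bp in shSMARCB1 and 4599 bp in shCon, and the log2 ratio of the full window was -0.07.

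TGFB2, a second ligand gene of the same family, lies on the plus strand of chromosome 1 at 218345336-218444619. Its covered length was 29273 bp in shSMARCB1 and 29760 bp in shCon, a log2 ratio of -0.02, and only SMAD3 among the 8 genes had more. The near-equal sums held different peaks: 15 peaks in shSMARCB1 and 11 in shCon, of which 4 in shSMARCB1 and 3 in shCon had no counterpart. The bases covered in both libraries were 73.4% of those covered in either. The peak over the TGFB2 start spanned 7473 bp in shSMARCB1 and 7352 bp in shCon. Further in, a region centred 18.5 kb downstream held 3 peaks covering 4415 bp in shSMARCB1 and a single 5414 bp peak in shCon. The peaks of TGFB2 found in shSMARCB1 alone were 501 to 916 bp wide, the widest at chr1:218398252-218399167, and the widest of those in shCon alone spanned 641 bp at chr1:218395906-218396546. The 250 bases upstream of the TGFB2 start, inside the start peak of both libraries, are shown because they hold both a TATA box (TATAAA) and the SMAD box (CAGAC), in capitals, read on the gene strand at chr1:218345086-218345335 (RefSeq, GRCh38.p14, plus strand).
TGFB2: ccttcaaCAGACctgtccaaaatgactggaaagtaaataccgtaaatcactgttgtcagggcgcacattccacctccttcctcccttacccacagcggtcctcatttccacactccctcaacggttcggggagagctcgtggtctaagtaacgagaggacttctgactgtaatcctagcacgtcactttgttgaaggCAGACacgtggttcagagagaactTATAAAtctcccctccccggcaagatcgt

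INHBA, which encodes the subunit of activin A, lies on the minus strand of chromosome 7 at 41685114-41705406. Its covered length was 6322 bp in shSMARCB1 and 6759 bp in shCon, a log2 ratio of -0.10. All 3 of its regions were found in both libraries. The region over the start end of the gene record was 1486 bp in shSMARCB1 and 1849 bp in shCon, and the middle region was 3342 bp in shSMARCB1 and 3631 bp in shCon. The innermost region ran the other way, with 1494 bp in shSMARCB1 and 1279 bp in shCon.

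TGFBR1, the type I receptor kinase, lies on the plus strand of chromosome 9 at 99103647-99154192. A single peak lay in its window, 1921 bp wide in shSMARCB1 and 1958 bp in shCon, which is 2.12% of the window in shSMARCB1 and 2.16% in shCon and the lowest share among the 8 genes. The bases common to both libraries were 98.1% of those covered in either. TGFBR1 was therefore the gene whose acetylation differed least in position between the libraries.

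TGFBR2, the type II receptor that binds the ligand first, lies on the plus strand of chromosome 3 at 30606356-30694142. It was the 1 gene with more covered length in shSMARCB1, 10053 bp against 9293 bp in shCon, a log2 ratio of 0.11. All 4 regions shared by the libraries were wider in shSMARCB1, by 760 bp in sum. Over the TGFBR2 start the width was 3045 bp in shSMARCB1 and 2976 bp in shCon. A region centred 52.8 kb into the gene was 3089 bp in shSMARCB1 and 2753 bp in shCon. Each library also had 1 peak of 501 bp without a counterpart, at chr3:30622440-30622940 in shSMARCB1 and at chr3:30612155-30612655 in shCon.

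**Figure D3:**
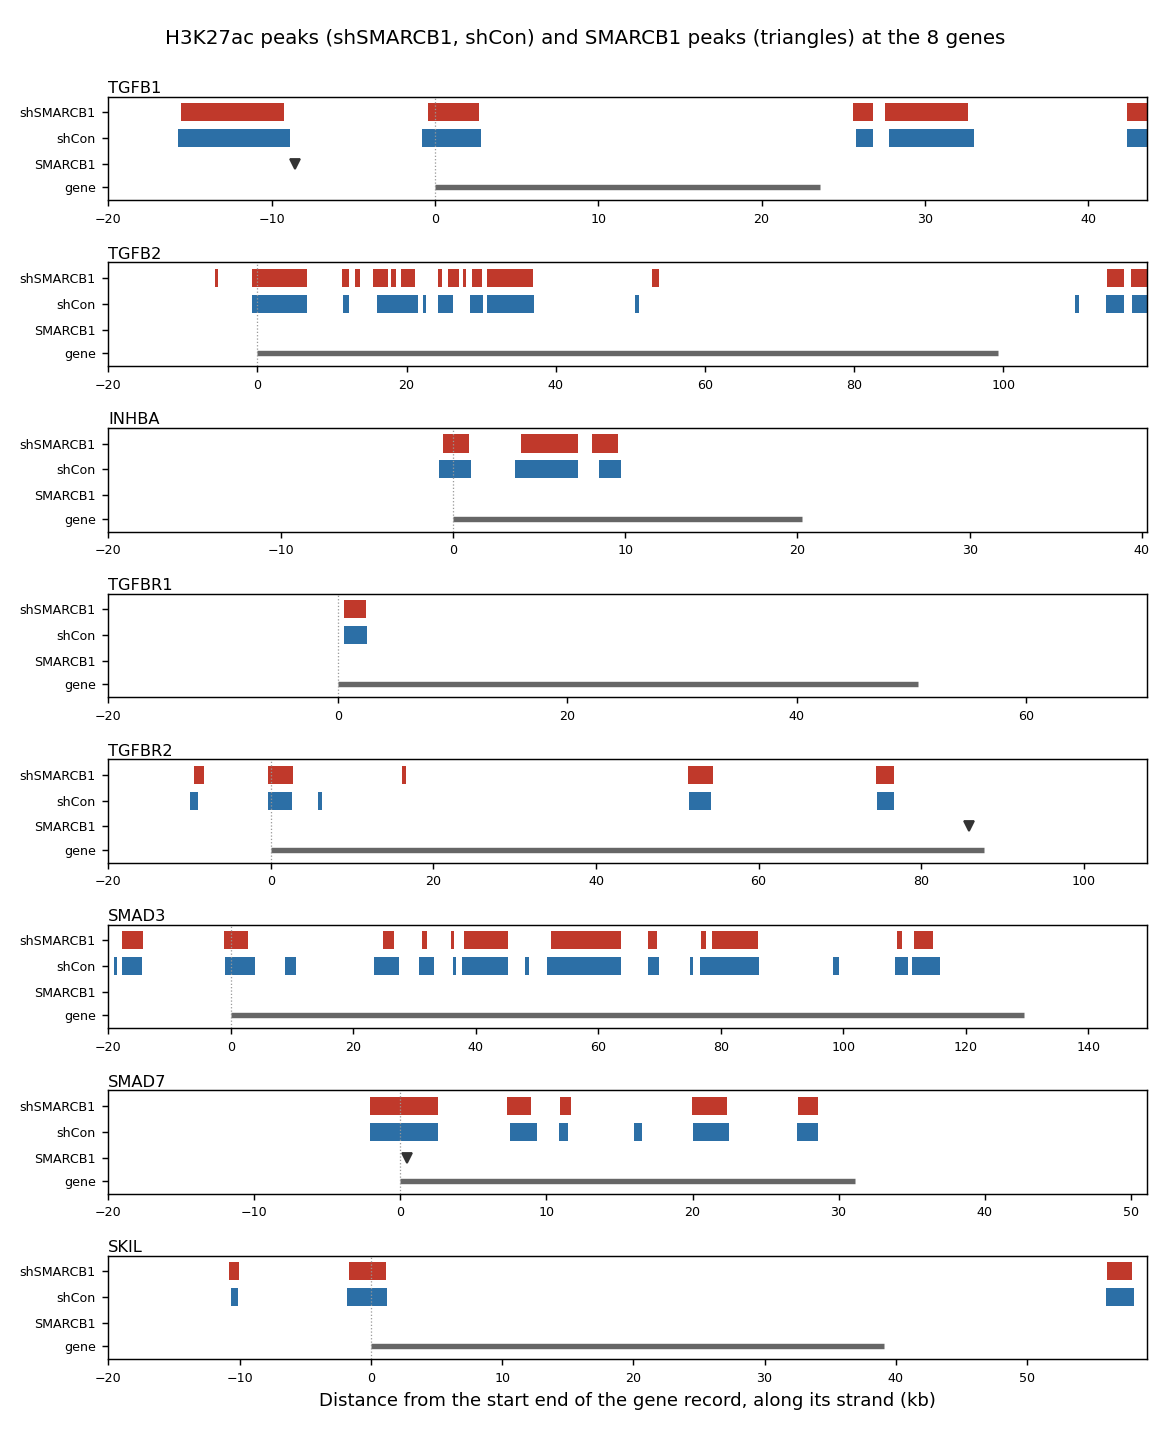
Each panel maps 1 gene and 20 kb on each side, with distance from the start end of the gene record along its strand (kb), H3K27ac peaks of shSMARCB1 (red) and shCon (blue), SMARCB1 peaks (triangles) and the gene record (grey). Most blocks pair between the libraries, the unpaired ones lie mainly at SMAD3 and TGFB2, and the 3 triangles lie at TGFB1, TGFBR2 and SMAD7.

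SMAD3, the receptor-activated transducer of TGF-beta and activin signals, lies on the plus strand of chromosome 15 at 67065602-67195169. H3K27ac covered 42812 bp of its window in shSMARCB1 and 57952 bp in shCon, which is 25.2% of the window in shSMARCB1 and 34.2% in shCon and a ratio of 0.739. By covered length SMAD3 ranked 60 of all genes in shSMARCB1 and 36 in shCon, a rank that favours long windows. Most of the acetylated length lay inside the gene record, 38424 bp in shSMARCB1 and 52931 bp in shCon. The window also holds AAGAB, SMAD3-DT and SMAD3-AS1, and without strand the marks cannot be assigned among overlapping genes. Among the 661 genes with at least 20 kb covered in shCon, a limit set after the values were seen, the median log2 ratio was -0.23 and 14.7% were at or below the -0.44 of SMAD3. This set was chosen by length in shCon, the denominator of the ratio. That choice by itself favours lower ratios, so both values are partly built in.

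The lower covered length at SMAD3 was spread over the gene and did not come from the start alone. Of 17 acetylated regions, 12 reached both libraries, and 10 of those covered less of the window in shSMARCB1, 1 covered more and 1 was equal. Regions of both libraries accounted for -10335 bp of the -15140 bp difference, and the 5 regions found in shCon alone accounted for -4805 bp. Over the SMAD3 start the peak was 3838 bp in shSMARCB1 and 4908 bp in shCon. The largest single narrowing, at chr15:67088998-67092990, was 1821 bp in shSMARCB1 against 3993 bp in shCon.

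The broadest SMAD3 domain, at chr15:67117199-67129342, differed little by comparison, with 11464 bp in shSMARCB1 and 12144 bp in shCon. A 7190 bp peak in shSMARCB1 and a 7552 bp peak in shCon lay 41.5 kb into the gene. Shorter regions varied. The region at 36.3 kb had 501 bp in both libraries, but at mostly different bases. Its peaks were chr15:67101477-67101977 in shSMARCB1 and chr15:67101917-67102417 in shCon. The region at 69 kb had 1470 bp in shSMARCB1 and 1802 bp in shCon. The regions centred 31.9 and 109 kb from the start covered 825 and 901 bp in shSMARCB1, and 2315 and 2211 bp in shCon. The 3 widest peaks of SMAD3 with no shSMARCB1 counterpart spanned 1815 bp at chr15:67074386-67076200, 1062 bp at chr15:67163875-67164936 and 799 bp at chr15:67113557-67114355. No SMAD3 peak of shSMARCB1 lacked a shCon counterpart. The annotation used gives gene records and start sites without exons, so the exon or intron place of these regions was not analysed here.

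**Figure D4:**
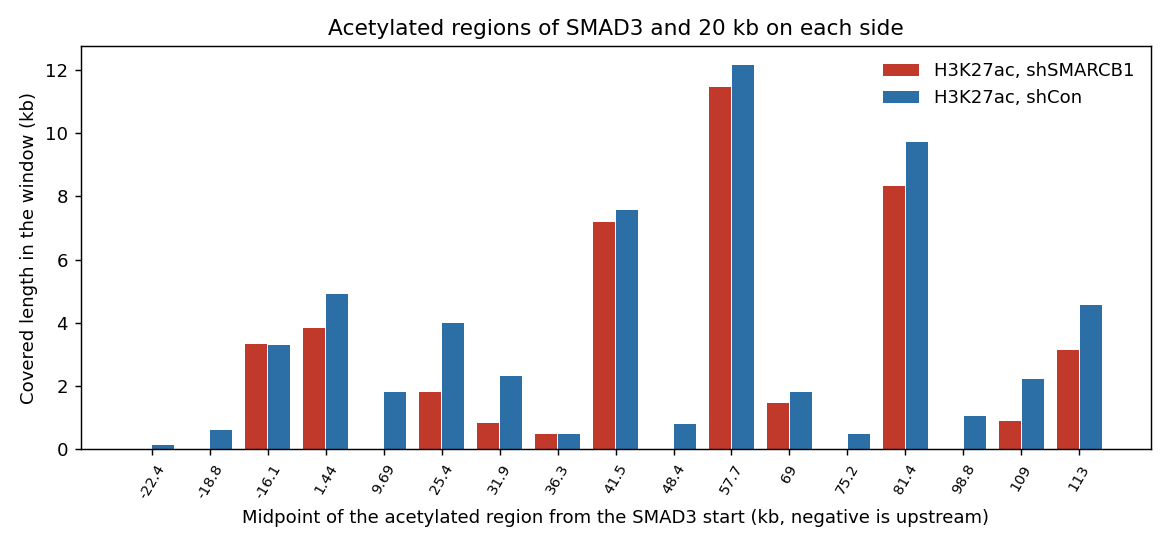
Bars give the covered length (kb) of each of the 17 acetylated regions in the SMAD3 window in shSMARCB1 (red) and shCon (blue), in order of distance of the region midpoint from the SMAD3 start (kb), with outer regions clipped at the window edge. The 5 positions with a blue bar and no red bar beyond the clipped first one are peaks of shCon alone, and the tallest pair is 11464 bp in shSMARCB1 and 12144 bp in shCon.

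RefSeq lists several SMAD3 starts, and the state of these differed. The start at 67065602 lay inside H3K27ac of both libraries, as did that at 67125742 inside the broadest domain. At the start at 67098679, H3K27ac covered 0 bp of the 300 bp around the start in shSMARCB1 and 267 bp in shCon. There the shSMARCB1 peak was the 825 bp one named above, which ended short of the start. The starts at 67138021 and 67166531 had none in either library. The 250 bases upstream of the first start (chr15:67065352-67065601) and of the start marked in shCon alone (chr15:67098429-67098678) are shown to set them side by side, both plus strand, with the GC-rich SMAD site (GGCGCC) in capitals.
SMAD3 first start: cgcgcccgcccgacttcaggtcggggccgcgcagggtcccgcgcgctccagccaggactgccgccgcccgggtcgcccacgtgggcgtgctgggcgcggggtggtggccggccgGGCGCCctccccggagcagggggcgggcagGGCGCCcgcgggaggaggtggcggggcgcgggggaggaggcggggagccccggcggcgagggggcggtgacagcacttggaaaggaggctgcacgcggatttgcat
SMAD3 start at 67098679: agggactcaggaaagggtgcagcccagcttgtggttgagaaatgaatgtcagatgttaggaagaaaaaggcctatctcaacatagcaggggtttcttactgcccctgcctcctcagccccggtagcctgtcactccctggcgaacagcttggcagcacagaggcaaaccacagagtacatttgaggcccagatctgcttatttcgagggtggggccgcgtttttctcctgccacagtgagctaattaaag
The first of these holds GGCGCC at positions -136 to -131 and -106 to -101 from the start, and the other holds none of the motifs searched.

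SMAD7, the inhibitory SMAD that blocks the type I receptor and is itself switched on by TGF-beta, lies on the minus strand of chromosome 18 at 48919853-48950965. Its covered length was 10842 bp in shSMARCB1 and 11553 bp in shCon, a log2 ratio of -0.09. The peak over the SMAD7 start was almost equal, 4654 bp in shSMARCB1 and 4662 bp in shCon. Most of the difference was 1 peak of 501 bp found in shCon alone, at chr18:48934460-48934960. Of the other 4 regions, 3 were narrower and 1 was wider in shSMARCB1.

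SKIL, which encodes the SnoN repressor of SMAD complexes, lies on the plus strand of chromosome 3 at 170357715-170396849. It had 5471 bp covered in shSMARCB1 and 5690 bp in shCon, a log2 ratio of -0.06. Its start peak was 2791 bp in shSMARCB1 and 3022 bp in shCon. A small peak centred at -10.4 kb from the SKIL start was 754 bp in shSMARCB1 and 501 bp in shCon. The outermost SKIL peak, 57.1 kb downstream of the start, was 1926 bp in shSMARCB1 and 2167 bp in shCon. Both feedback genes thus held their start peaks in both libraries.

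The upstream sequences of the feedback genes are shown because SMAD proteins are known to act on these promoters, and both lie inside start peaks of both libraries. They are read on the gene strand at chr18:48950966-48951215 (minus strand, SMAD7) and chr3:170357465-170357714 (plus strand, SKIL). Capitals mark CAGAC or its reverse complement GTCTG in both, and in SKIL also GGCGCC and the cyclic AMP response element TGACGTCA.
SMAD7: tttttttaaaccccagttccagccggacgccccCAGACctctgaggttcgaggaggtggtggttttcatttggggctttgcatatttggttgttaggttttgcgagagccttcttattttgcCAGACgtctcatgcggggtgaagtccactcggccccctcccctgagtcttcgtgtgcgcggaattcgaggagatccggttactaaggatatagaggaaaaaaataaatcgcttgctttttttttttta
SKIL: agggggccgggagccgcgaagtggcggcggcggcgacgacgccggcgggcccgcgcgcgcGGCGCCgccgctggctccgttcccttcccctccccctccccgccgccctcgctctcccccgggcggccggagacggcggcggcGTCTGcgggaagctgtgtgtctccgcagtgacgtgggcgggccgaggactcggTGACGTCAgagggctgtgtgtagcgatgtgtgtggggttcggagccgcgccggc
SMAD7 holds CAGAC at positions -217 to -213 and -128 to -124. SKIL holds GGCGCC at -190 to -185, CAGAC on the opposite strand at -107 to -103 and TGACGTCA at -54 to -47.

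Motifs were searched on both strands of the 250 bases upstream of the start in each 300 bp start window, and none of the motifs contains another. CAGAC was found in 10 of 22 start windows of the 8 genes, belonging to SKIL, SMAD3, SMAD7, TGFB2 and TGFBR1, and in 37.3% of all 22132 windows. Windows of TGFBR1 overlap in part, and the same CAGAC site counts for its starts at 99105083 and 99105113, so the windows are not independent. GGCGCC was found in 3 windows, of SKIL, SMAD3 and TGFBR1, and in 20.7% of all windows. The palindromic SMAD site GTCTAGAC was in none of the 22 and in 0.208% of all. The AP-1 site TGAGTCA was in 1 window, that of the SMAD3 start at 67125742, and in 3.45% of all, and TGACGTCA was in 1, that of SKIL, and in 2.02% of all. TATAAA was in 3 windows, of INHBA, SMAD7 and TGFB2, and in 9% of all. These matches describe the letters and say nothing of binding.

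Of the 22 start windows, 16 had H3K27ac in both libraries, 0 in shSMARCB1 alone, 1 in shCon alone and 5 in neither. Over all 22132 windows of 15812 genes, 58.1% had it in both, 0.624% in shSMARCB1 alone and 1.99% in shCon alone. The single window was that of SMAD3 described above. The 5 without the mark were the INHBA start at 41703090, the TGFBR1 starts at 99103647 and 99104052, and the SMAD3 starts at 67138021 and 67166531. The INHBA start lies inside its gene record, whose start end at 41705406 was under H3K27ac in both libraries. Windows of 1 gene overlap in part and share peaks.

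The windows of the 8 genes were reached by 49 peaks in shSMARCB1 and 51 in shCon. In shSMARCB1, 5 of them had no counterpart in shCon, which is 10.2% with a 95% Wilson interval from 4.44 to 21.8%, against 12.2% over the whole list. In shCon, 10 had none in shSMARCB1, which is 19.6% with an interval from 11 to 32.5%, against 17.7% over the whole list. Both shares lie near those of the whole lists, and the intervals cover counting error only. Peaks without a counterpart were 501 to 916 bp wide in shSMARCB1 and 501 to 1815 bp in shCon, while paired peaks, some of them also 501 bp wide, had a median width of 1926 bp in shSMARCB1 and 2471 bp in shCon. SMAD3 held 5 of the 10 in shCon, and TGFB2 held 4 of the 5 in shSMARCB1.

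SMARCB1 peaks lay in the windows of 3 of the 8 genes, TGFB1, TGFBR2 and SMAD7, against 28.2% of all protein-coding genes. Each of the 3 genes had 1 SMARCB1 peak of 500 bp, with the authors' value, whose unit is not stated, from 7.92 to 11.6. The SMAD7 peak, at chr18:48950252-48950751, ranked 2125 of 4453 by that value and is classed by the authors as 5' UTR. Its midpoint lay 464 bp downstream of the SMAD7 start, and it was the 1 SMARCB1 peak of the 3 that overlapped H3K27ac, in both libraries, beside 67.9% of all 4453 SMARCB1 peaks. The acetylated start peak over it was the one that differed by 8 bp between the libraries.

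The TGFBR2 peak of SMARCB1, at chr3:30692000-30692499 with a value of 11.1, is classed as 3' UTR and lay about 8981 bp from the nearest H3K27ac in shSMARCB1 and 8948 bp in shCon. The TGFB1 peak, at chr19:41362249-41362748 with a value of 7.92, is classed as intron, lies in the record of the neighbour B9D2 and ranked 4433 of 4453. It lay 398 bp from H3K27ac in shSMARCB1 and 53 bp in shCon. No SMARCB1 peak lay in the SMAD3 window. The nearest, at chr15:67042341-67042840, was 22.8 kb from the SMAD3 record, just outside it, and overlapped H3K27ac of both libraries. For TGFB2, INHBA, TGFBR1 and SKIL the nearest SMARCB1 peak was 127, 196, 307 and 593 kb away.

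A list of 61 other genes held further ligands, receptors, SMADs and regulators of the TGF-beta superfamily and target genes. Of these, 57 had H3K27ac in their windows, beside 81.5% of all protein-coding genes. The covered length was less in shSMARCB1 at 48 and more at 9, beside 77% of all genes with less, and the median log2 ratio was -0.22, beside -0.17 over all genes. Past 1.5-fold were 7 lower and 2 higher genes, beside the shares of 10.8% and 3.53% over all genes. The 5 receptor-activated and common SMAD genes of the list, which leave out the inhibitory SMAD6, had a median of -0.46 and all had less in shSMARCB1, as did 77% of all genes. This was the lowest median among the roles of the list. The other roles ran from -0.28 for targets to -0.11 for feedback genes and antagonists. Of the 5 SMAD genes, SMAD1 and SMAD9, which carry BMP signals, were past 1.5-fold at -0.88 and -1.02. These ratios rest on short lengths. SMAD1 had 1705 bp in shSMARCB1 and 3139 bp in shCon, and SMAD9 had 501 bp in shSMARCB1 and 1017 bp in shCon. Of 14 feedback genes and antagonists, 3 were past 1.5-fold lower and 1 higher. SMAD6, the inhibitory SMAD of BMP signalling, had 4912 bp in shSMARCB1 and 9694 bp in shCon, and PMEPA1, a brake on receptor signalling, had 1148 bp in shSMARCB1 and 3424 bp in shCon. BAMBI, a pseudoreceptor, was the other one that was lower, at -0.83.

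GREM1, a secreted BMP antagonist, had 6334 bp in shSMARCB1 and 0 bp in shCon, from 3 peaks of which the widest spanned 4795 bp at chr15:32703037-32707831. Only the narrowest, of 501 bp, reached the GREM1 record, which starts at 32718004. The wider peaks lay in its flank, nearer to the end of the ARHGAP11A-SCG5 record at 32697098. The ARHGAP11A-SCG5 window had 11845 bp in shSMARCB1 and 4627 bp in shCon, so most of this length is shared with a neighbour. ACVR1B, an activin type I receptor, had 7265 bp in shSMARCB1 and 4677 bp in shCon, mostly through 1 peak of 4004 bp in shSMARCB1 and 1225 bp in shCon. THBS1, which activates latent TGF-beta, had 8464 bp in shSMARCB1 and 13207 bp in shCon. TGFBI, a matrix gene induced by TGF-beta, had 5304 bp in shSMARCB1 and 8025 bp in shCon. Of 16 target genes, 15 had H3K27ac and TGFBI was the 1 past 1.5-fold, beside 10.8% lower and 3.53% higher over all genes. The longest covered length of the list was at SMURF2, an E3 ligase for receptors and SMADs, with 59229 bp in shSMARCB1 and 62189 bp in shCon.

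**Figure D5:**
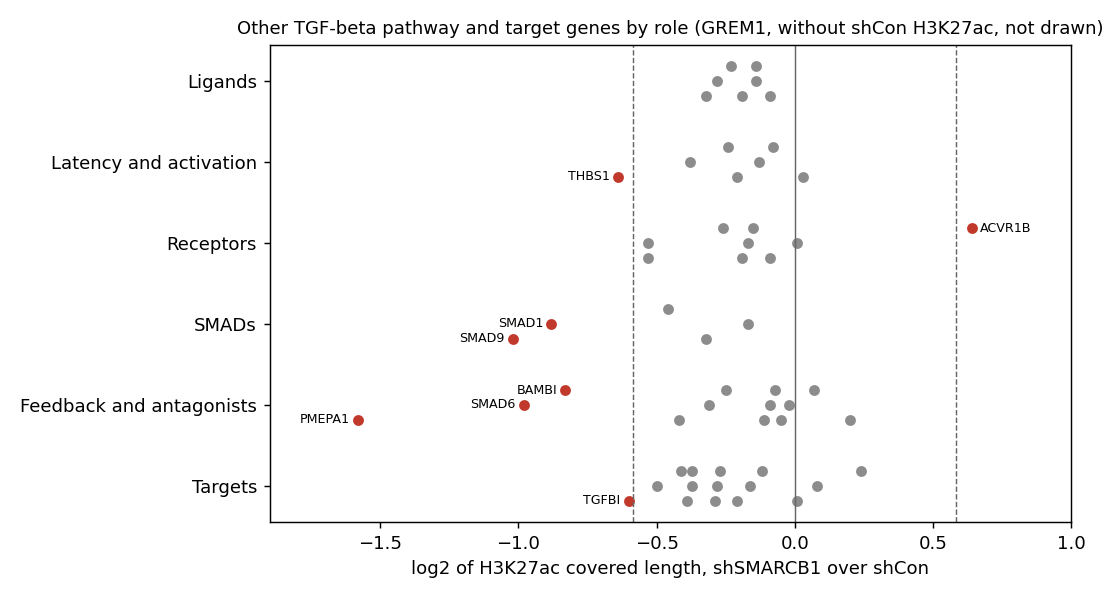
Each point is 1 of the other TGF-beta pathway and target genes covered in both libraries, placed by its log2 ratio of H3K27ac covered length, shSMARCB1 over shCon, and grouped by role; dashed lines mark 1.5-fold and red points are past it. Points lie mostly left of 0, with PMEPA1 farthest left at -1.58 and ACVR1B farthest right at 0.64 among the genes drawn; GREM1, with no H3K27ac in shCon, has no ratio and is not drawn.

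SMARCB1 peaks lay in the windows of 22 of the 61 genes, beside 28.2% of all genes. The highest values were at ID3 and ID1, immediate targets of BMP and TGF-beta signalling, with 67.6 and 59.2, followed by the SMAD6 window with 30.6. The ID3 and ID1 peaks lay on the gene records. That of SMAD6, at chr15:66802030-66803564, is classed as intergenic and lay past the record end at 66782849, across the window edge. All 3 peaks overlapped H3K27ac of both libraries, as 67.9% of all SMARCB1 peaks did. The peak values in these 3 windows were above the 11.6 of SMAD7, the highest among the 8 genes.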

How the data were processed

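Chromatin was sheared by sonication and libraries were sequenced as read pairs, per the labels. Samples were grouped by title. The submitters' processing notes name Bowtie2 and HOMER, with no version, and hg38. HOMER called H3K27ac peaks in histone style for each library, with 500 bp as peak size, 1000 bp between peaks and 4-fold enrichment against input and surroundings, per the file headers. The headers differed in fragment length, 158 in shSMARCB1 and 190 in shCon, and in the Poisson tag threshold, 10 in shSMARCB1 and 11 in shCon. The part of these differences in the peak widths was not tested. The control input served for both, so no input of shSMARCB1 cells entered. Their deposited score is the same for every peak, so only positions and widths were used. The deposited SMARCB1 list gives a score and a position class per peak, both the authors' own, and the score only ranked peaks within that list. The input library was not analysed here.

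Covered lengths, overlaps of at least 1 base and distances were computed with Python 3.11.15, NumPy 2.4.6, SciPy 1.17.1 and matplotlib 3.10.9 on autosomes and X. Gene records, start sites and sequences came from RefSeq tables (GRCh38.p14, with the same main chromosome sequences as hg38), and all symbols were found. The code was tested on simulated data and recovered 1000 of 1000 window lengths and 2000 of 2000 peaks with or without a counterpart. With 1 library per group no test was made, and 1.5-fold in covered length was used as a limit of size. The genes, lists and motifs were chosen with earlier results of these data known. All 8 genes are named. From the list of 61 other genes, the text names up to 4 per direction past 1.5-fold with the largest difference in bp, the 3 with the longest covered length in shCon (among them GDF15, with 20768 bp in shSMARCB1 and 22083 bp in shCon) and the 4 with the highest SMARCB1 values, except 1 gene that is not reported here. SMAD1, SMAD9 and BAMBI were named after their values were seen. Alternatives changed the window, the peaks kept, their merging, the width counted and the overlap required.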

Additional observations from a re-analysis of the deposited data

How the results depend on the processing

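No paired analysis was possible because each group had 1 library. The median log2 ratio of the 8 genes lay between -0.11 and -0.02 over 6 alternative settings, and SMAD3 between -0.56 and -0.41. The -0.56 came from counting whole peak widths, with 42812 bp in shSMARCB1 and 62927 bp in shCon. By construction, that setting counted in full a shCon peak of 5130 bp that reached the window by 155 bp. Its shSMARCB1 counterpart ended short of the window and was not counted. No setting put a gene past 1.5-fold higher. With a window of 50 kb, 1 gene was past 1.5-fold lower, TGFBR1, with 1921 bp in shSMARCB1 and 3552 bp in shCon, and 3 SMARCB1 peaks lay on H3K27ac of both libraries in place of 1. With the wider 50% of each H3K27ac list, 1 gene was past 1.5-fold lower, INHBA, with 3342 bp in shSMARCB1 and 5480 bp in shCon, and 7 peaks lacked a counterpart in place of 15, with 0 in shSMARCB1 and 7 in shCon. By construction, the INHBA peaks of 1494 and 1486 bp in shSMARCB1 fall below the 1601 bp needed there, while the 1849 bp peak in shCon exceeds the 1707 bp needed in that list. Of the 7 shCon peaks, only the SMAD3 peak of 1815 bp lacked a counterpart in the full lists. The others had narrower shSMARCB1 counterparts that the width limit removed, so the split of 0 and 7 comes mostly from that limit. With the upper 50% of SMARCB1 peaks, 1 gene held one, SMAD7, in place of 3. Where peaks within 1 kb were merged, TGFB2 stood at 0.09 and INHBA at 0.08, and with nearest peaks alone SKIL stood at 0.01, so the small negative ratios of these genes have no stable sign. The deposited lists give no signal per peak, so a change in peak height within an unchanged width was not measured, and shCon had the greater depth.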

Other observations

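SMAD3, SMAD6, THBS1 and GREM1 all lie on chromosome 15, which was looked at after their values were seen. H3K27ac covered 2.48 Mb of chromosome 15 in shSMARCB1 and 2.78 Mb in shCon, a ratio of 0.894. Over 23 chromosomes this ratio ran from 0.83 to 0.99, and chromosome 15 ranked 11 from the lowest. The median log2 ratio of its 501 genes with H3K27ac in both libraries was -0.17, the same as over all chromosomes.

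At THBS1 shSMARCB1 had peaks of 6022, 905 and 909 bp where shCon had a single peak of 11120 bp. All 5 SMAD6 peaks had counterparts in both libraries and 5 of 5 were narrower in shSMARCB1, the widest with 2852 bp in shSMARCB1 and 4631 bp in shCon. This widest peak lay in the flank, past the SMAD6 record end at 66782849. The window edge cut it, so only part of its width counts in the covered length of SMAD6.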
